A study of Mus musculus with 37 samples.

Results

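The transcripts described here were inherited from the oocyte, stayed in the egg until fertilization and were then lost from the embryo. They are 300 of 55401 listed genes. For each stage the mean of log2(FPKM + 1) was taken in controls and in knockouts and the 2 means were averaged, FPKM being fragments scaled to transcript length and library size. Genes whose averaged level was lower in metaphase II (MII) eggs than in fully grown oocytes (FGO) by 1 or more were set aside. The others were ranked by their fall from MII eggs to late 2-cell embryos and the first 300 were kept, after mitochondrial genes, small nucleolar RNAs, ribosomal protein genes and a numbered series of zinc finger genes had been removed by symbol. The fall after fertilization is therefore the choice itself and is described without a test. The comparison of the fall between the 2 genotypes was not used in the choice.

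The libraries came from mice in which the gene for the deubiquitinase BAP1 was deleted in oocytes. Controls were Bap1flox/flox. Knockouts were Bap1flox/flox with Gdf9-iCre, a recombinase expressed from an oocyte promoter, so other cells of the mother keep the intact gene. Crosses of these females to B6 males gave the preimplantation embryos, taken late in the 1-cell stage and both early and late in the 2-cell stage. Crosses to PWK males gave the embryos of day 6.5. Embryos of knockout mothers thus lack maternal BAP1 and receive an intact paternal allele. Control groups held 2 total RNA libraries each, except 3 at the early 2-cell stage, and every knockout group held 3. The labels give no ages, and do not say how many oocytes or embryos went into a library or whether replicates came from separate females, so the p-values measure the spread between these libraries.

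A mouse egg is transcriptionally silent and relies on stored mRNA. Some of this store is degraded during meiotic maturation by a pathway encoded by the egg, in which the BTG4 adaptor brings the CCR4-NOT deadenylase to mRNA tails. The remainder is degraded after fertilization, partly by products that the embryonic genome must first make, among them TEAD4-dependent transcripts and the uridylyltransferases TUT4 and TUT7. Removing maternal mRNA hands control of development to the embryonic genome.

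All 300 genes passed the filter for testing, which asked for at least 1 FPKM in at least 2 of the 26 total RNA libraries and left 15184 genes. Of the 300, 270 are annotated as protein-coding, 20 as long non-coding or still to be checked, and 10 as pseudogenes. For 42, over 20% of their 50-base exonic words also occur in other genes, so their counts are uncertain. Bap1 itself ranged from 16.3 to 29.9 FPKM over the control libraries and from 3.76 to 11.7 FPKM over the knockout libraries of these stages, with every knockout library below every control library. All 10 oocyte markers were at or above 1 FPKM in every MII library. Of 10 sperm or spermatid markers, at most 2 reached 1 FPKM in any MII or 2-cell library. The summed level of 15 granulosa or cumulus cell markers was 27.0 to 27.6 FPKM in control and 20.01 to 20.8 in knockout MII eggs, and 39.3 to 43.7 against 23.4 to 34.0 at the late 2-cell stage, with 2 to 4 of the 15 at 1 FPKM or more and Inha at 0 in every late 2-cell library. Its part in the results was not tested.

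**Figure D1:**
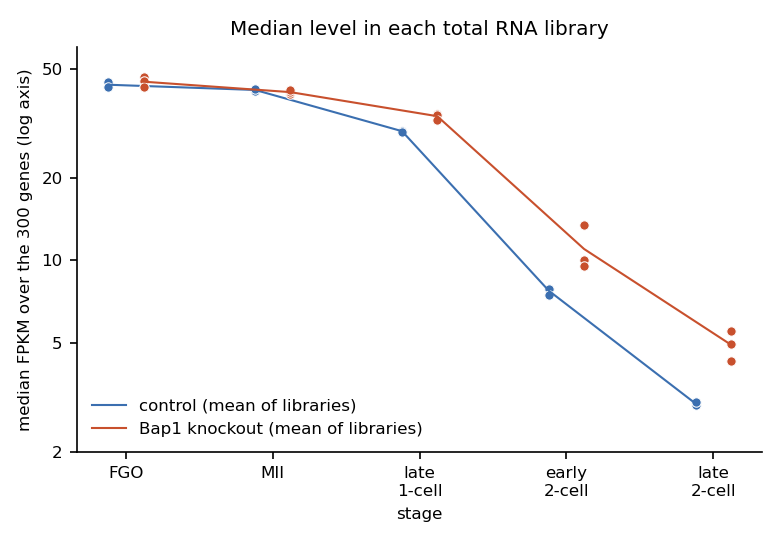
Median FPKM over the 300 genes in each total RNA library, on a log axis, by stage. Points are libraries and lines join group means. The libraries sit together in FGO and MII eggs, and the knockout libraries lie above the controls from the late 1-cell stage on.

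Over the 300 genes the median level was 41.5 and 42.1 FPKM in the control MII libraries and 40.5, 40.9 and 41.8 FPKM in the knockout MII libraries. It was 29.7 and 29.4 FPKM in control late 1-cell embryos and 34.1, 33.9 and 32.6 FPKM in knockout ones. The knockout libraries were above both controls at this stage. In eggs knockout replicate 3 lay between the controls and the other knockout libraries below them. In early 2-cell embryos the controls read 7.85, 7.88 and 7.48 FPKM and the knockouts 10.0, 13.5 and 9.49 FPKM. In late 2-cell embryos the controls read 2.95 and 3.04 FPKM and the knockouts 4.29, 4.94 and 5.53 FPKM. Neither 2-cell stage showed overlap between the genotypes, and knockout replicate 2 stood above the other early 2-cell knockout libraries. Of the summed FPKM of a library, the 300 genes held 8.18% to 8.45% in MII eggs of either genotype, 0.443% and 0.452% in control late 2-cell embryos and 0.708% to 0.890% in knockout ones. These are shares of each library's RNA: less of these transcripts per embryo and more of other RNA cannot be told apart, nor can fewer embryos and less RNA per embryo.

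In controls the fall from MII to late 2-cell, on the log2(FPKM + 1) scale, ranged from 2.07 to 6.77 with a median of 3.34. In knockouts it ranged from 1.85 to 5.75 with a median of 2.80. From FGO to MII the median fall was -0.00 in controls and 0.02 in knockouts. The last genes inside the ranking were Cd177, Galnt6 and Gins1, with falls averaged over genotypes of 2.704, 2.696 and 2.694, and the first outside were Ndufb3, Gm4924 and Umodl1, at 2.694, 2.692 and 2.690. The limit on the change during maturation kept out 5 genes that fell as far, among them Dnmt1, which fell by 1.01 from FGO to MII, Gm2000 at 1.13 and Fbxw13 at 1.23. Just inside it were Fbxw15 at 0.95, Elobl at 0.84 and Tsga10ip at 0.83.

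Most of the loss lay between the late 1-cell and the early 2-cell stage. The median fall in controls was 0.40 from MII to late 1-cell, 1.72 from late 1-cell to early 2-cell and 1.14 from early to late 2-cell. In knockouts the medians were 0.26, 1.55 and 1.00. The middle step was the largest for 182 genes in controls and 209 in knockouts, and the first step for 27 and 7. Falls of over 1 in the first step were seen for 71 genes in controls and 35 in knockouts.

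The transcripts with the deepest fall had several roles. Ftdc1 (chr16:58613675-58616978), a ferritin domain gene, was at 378 and 372 FPKM in control MII eggs and at 2.18 and 2.71 in control late 2-cell embryos. In knockouts it was at 363, 360 and 441 FPKM in eggs and at 4.29, 5.78 and 9.42 in late 2-cell embryos. The genotypes overlapped in eggs and not at the end of the fall. H1f8 (chr6:115944938-115950236), the linker histone of the oocyte, fell from 1122 and 1069 FPKM in control eggs to 24.5 and 28.8 FPKM, and from 1003, 1036 and 1002 to 30.4, 43.0 and 58.0 FPKM in knockouts. With the unnamed gene model Gm1070 left aside, the other 10 of the 12 deepest falls were Pabpn1l, Fam162a, Txnip, Mos, Gja4, Rgs2, Bub1b, Ndufa8, Glrx and Camsap3. Timing differed among them. Mos, the kinase that holds the egg in metaphase II, was already at 4.75 and 6.47 FPKM in control late 1-cell embryos, down from 51.2 and 51.4 in eggs. Rgs2, a regulator of G protein signalling, stood at 153 and 165 FPKM in control late 1-cell embryos, above its 116 and 114 in eggs, and reached 2.41 and 2.67 only in late 2-cell embryos. Crabp2, a retinoic acid binding protein, was among those with the smallest fall into the early 2-cell stage, with 59.5 and 58.4 FPKM in control late 1-cell, 97.8, 101 and 130 in early 2-cell and 5.82 and 5.63 in late 2-cell embryos.

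The annotated 3′ UTRs of these transcripts were short. The 3′ UTR is where stored mRNAs carry elements that govern their tails. A transcript with a complete coding sequence was found for 268 of the 270 protein-coding genes in GENCODE M21 (GRCm38). For each gene the longest such transcript with a 3′ UTR was used. The median 3′ UTR of the 268 was 387 bases, with quartiles of 189 and 968. Over all 11514 such genes tested the median was 1067 bases, and over the 5275 at or above the lowest of the 300 in MII eggs (7.58 FPKM) it was 1072 bases. Among the 87 such genes that instead fell by 1 or more during maturation it was 191 bases, and among 178 that rose most to the late 2-cell stage it was 748 bases. Coding sequences were also shorter, with medians of 1089 bases against 1377 over all genes tested. The GC content of the 3′ UTR was 44.8% against 43.9%. These are descriptions of annotated transcripts, not of the 3′ ends used in the egg, and no test was made.

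**Figure D2:**
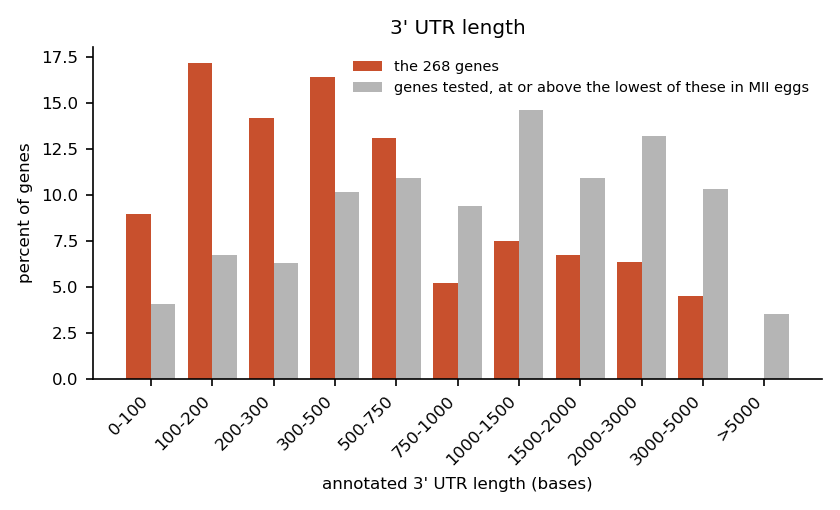
Share of genes in each class of annotated 3′ UTR length, for the 268 genes with a complete transcript and for the 5275 genes tested at or above the lowest of the 300 in MII eggs. The 268 are shifted to short 3′ UTRs, with 17.2% between 100 and 200 bases and 0 above 5000.

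The short 3′ UTRs held fewer of the elements searched for on the transcribed strand. A cytoplasmic polyadenylation element, written TTTTAT or TTTTAAT, lay in 37.3% of the 268 3′ UTRs against 62.0% over all genes tested. The Pumilio element TGTANATA lay in 13.1% against 26.2%, and the AU-rich element TATTTAT in 15.3% against 29.7%. Within the last 100 bases the shares were nearer to each other: 16.4% against 19.4% for the polyadenylation element, 4.10% against 5.03% for TGTANATA and 2.99% against 4.43% for TATTTAT. The polyadenylation signal AATAAA lay there in 56.7% against 66.3%.

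In 7 of the 268 genes a polyadenylation element and the signal AATAAA fell within 30 bases of each other and within 60 bases of the annotated end, a share of 2.61% against 3.80% over all genes tested. These windows show the arrangement that lengthens tails in the maturing egg, with both elements in capitals, 5′ to 3′ on the transcribed strand, from GENCODE M21 on GRCm38. A match is a description of the letters only. The windows lie at chr11:53437858-53437887 (+) for Gdf9, chr2:118641547-118641576 (+) for Bub1b, chr3:96561837-96561866 (+) for Txnip, chr10:17725612-17725641 (+) for Cited2, chr4:98355387-98355416 (-) for Tm2d1, chr6:88912195-88912224 (+) for Tpra1 and chr3:137928715-137928744 (+) for Lamtor3.
Gdf9: tgctgtggTTTTATgtgacggaagAATAAA
Bub1b: ctctcctttcactgtgtaTTTTATAATAAA
Txnip: aaaataaagttTTTTAATgacaaaAATAAA
Cited2: attctaTTTTAATttgccaatgtcAATAAA
Tm2d1: cacttgtcatTTTTATttgtgaaaAATAAA
Tpra1: tttcttgatctattTTTTAATaaaAATAAA
Lamtor3: ggccattTTTTATacatgtgtataAATAAA

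Whether these transcripts were cleared as fully without maternal BAP1 was asked from the difference between the genotypes in the change from MII to late 2-cell, a contrast of 4 groups in 1 limma fit. Positive values mean that the knockout lost less. Of the 300 genes, 125 lost less in the knockout and 3 lost more, with Benjamini-Hochberg adjustment over all 15184 genes tested. Over all genes tested, 15.3% were called in the first direction and 13.7% in the second. The difference lay above 0 for 250 of the 300, with a median of 0.58 and quartiles of 0.15 and 0.90 on the log2 scale, while the median over all genes tested was 0.08. The size of the median depends on how the genes are ranked. Ranked by the fall in knockout libraries alone, 229 of the 300 genes were shared, the median difference was 0.18 and 71 genes lost less and 37 lost more. Ranked by control libraries alone, the median was 0.80 and 185 lost less and 0 lost more. Without control late 2-cell replicate 1, the 128 calls became 85.

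**Figure D3:**
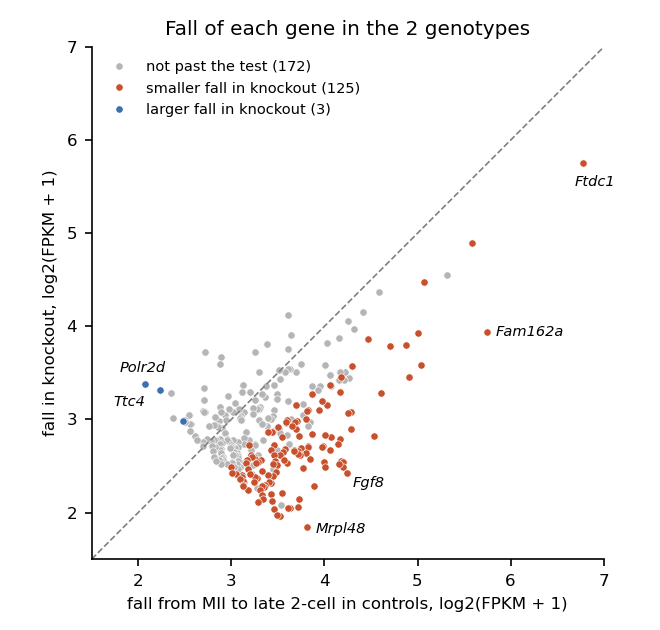
Fall from MII eggs to late 2-cell embryos in controls (horizontal) and knockouts (vertical), both as differences of mean log2(FPKM + 1), for each of the 300 genes. The dashed line marks equal falls. The 125 genes with a smaller fall in the knockout lie below it and the 3 with a larger fall above it.

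The transcripts whose fall was reduced most in knockouts, among those called whose late 2-cell libraries did not overlap, had varied known roles. The values do not separate RNA kept from the egg from RNA newly made by the embryo. Mrpl48 (chr7:100545751-100608301), a protein of the mitochondrial ribosome, was at 60.8 and 73.3 FPKM in control and 58.6, 69.6 and 60.7 FPKM in knockout MII eggs. Late 2-cell embryos held 5.29 and 2.71 FPKM in controls and 14.6, 22.4 and 14.2 FPKM in knockouts. The genotypes were mixed in eggs and apart at the end, and the fall was smaller in knockouts by 1.96 ± 0.28 (SE, adjusted p = 3.3e-05). Fgf8 (chr19:45736798-45742915), which encodes a secreted growth factor of the oocyte, went from 60.5 and 63.2 FPKM in control eggs to 1.72 and 3.06 FPKM, and from 61.6, 73.4 and 59.9 FPKM in knockout eggs to 7.98, 12.2 and 14.4 FPKM. Its difference was 1.81 ± 0.25 (SE, adjusted p = 1.4e-05), and the egg libraries overlapped while the late 2-cell libraries were apart. Fam162a (chr16:36043761-36071594), a mitochondrial protein, went from 80.2 and 73.6 FPKM in control eggs to 0.478 and 0.420 FPKM, and in knockouts from 71.4, 83.0 and 81.3 FPKM to 4.15, 4.95 and 3.55 FPKM. Its difference of 1.81 ± 0.20 (SE, adjusted p = 1.3e-06) understates the ratio, since the control level lies under the pseudocount of 1.

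Oas1c (chr5:120800194-120812514), of the oligoadenylate synthetase family, fell from 176 FPKM in both control egg libraries to 9.83 and 8.05 FPKM, and in knockouts from 190, 191 and 194 FPKM to 29.2, 36.7 and 32.1 FPKM. The knockout libraries were above the controls at both ends, by far more at the late 2-cell stage, with a difference of 1.64 ± 0.17 (SE, adjusted p = 8.9e-07). Ninj2, a ninjurin membrane protein, ended at 1.28 and 1.24 FPKM in controls and 6.48, 6.06 and 6.97 FPKM in knockouts, and its difference was 1.71 ± 0.21 (SE). Asgr2, a subunit of a galactose-binding receptor, ended at 3.04 and 2.84 FPKM against 10.4, 14.3 and 12.5 FPKM, a difference of 1.65 ± 0.23 (SE). Tdrd12, a Tudor domain protein of the piRNA pathway, ended at 0.989 and 2.62 FPKM against 6.87, 7.12 and 8.33 FPKM, a difference of 1.62 ± 0.21 (SE). The late 2-cell groups were apart for all 3 of these genes. Fetub, encoding the protease inhibitor fetuin B, was the exception in its start. It was lower in knockout eggs, at 22.4, 25.9 and 24.4 FPKM against 38.2 and 40.0 FPKM, and higher in knockout late 2-cell embryos, at 3.30, 3.12 and 3.58 FPKM against 0.868 and 1.56 FPKM. Both ends enter its difference of 1.66 ± 0.27 (SE, adjusted p = 9.3e-05).

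**Figure D4:**
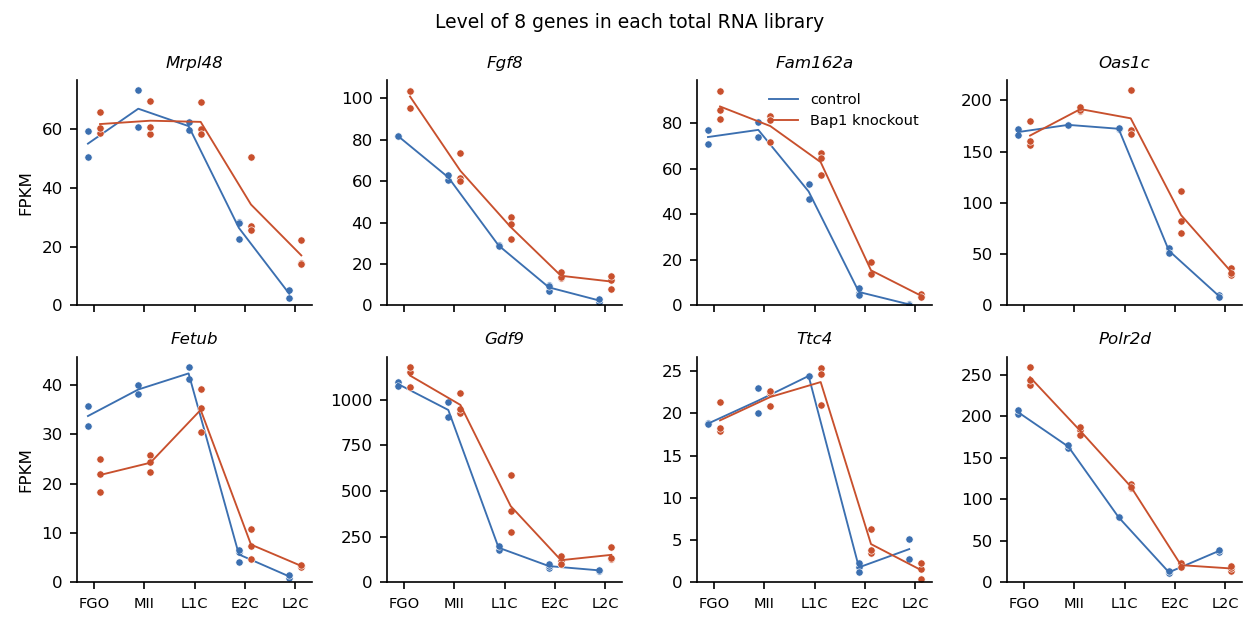
FPKM of 8 genes in each total RNA library by stage (FGO, MII, L1C late 1-cell, E2C early 2-cell, L2C late 2-cell). Points are libraries and lines join group means. The first 6 genes end higher in the knockout, and Ttc4 and Polr2d cross between the 2-cell stages.

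The 3 genes that lost more in the knockout were Polr2d, a subunit of RNA polymerase II, Ttc4, a co-chaperone of HSP90, and Noc4l, a nucleolar protein of small ribosomal subunit assembly. Polr2d was higher in every knockout than in every control library up to the early 2-cell stage, where it read 20.6, 23.4 and 18.3 FPKM against 11.7, 11.5 and 13.3 FPKM. In late 2-cell embryos the controls were back at 37.0 and 39.1 FPKM and the knockouts at 13.5, 17.4 and 19.4 FPKM. The order of the genotypes thus turned over between the 2-cell stages without overlap at either, and the difference in the fall was -1.31 ± 0.13 (SE, adjusted p = 3.4e-07). Ttc4 showed the same turn, with 3.44, 6.34 and 3.82 FPKM in knockout against 1.84, 2.27 and 1.23 FPKM in control early 2-cell embryos. Its late 2-cell libraries held 0.387, 1.60 and 2.35 FPKM in knockouts and 5.16 and 2.73 FPKM in controls, and its difference was -1.09 ± 0.32 (SE, adjusted p = 0.013). Without control late 2-cell replicate 1 the Ttc4 call was lost. Noc4l ended at 4.69, 4.88 and 6.45 FPKM against 7.64 and 8.48 FPKM, with a difference of -0.50 ± 0.18 (SE, adjusted p = 0.046), and 19 of its alternatives lost the call. In all 3 genes the mean of the controls was higher at the late than at the early 2-cell stage.

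By stage, fewer of the 300 genes were called between knockout and control in the oocyte than in the embryo. In FGO 12 were higher and 17 lower in the knockout, where 3.91% and 9.97% of all genes tested were called. In MII eggs 14 were higher and 16 lower, against 6.57% and 10.2%. In late 1-cell embryos 75 were higher and 8 lower, against 7.6% and 10.0%. In early 2-cell embryos 95 were higher and 1, the gene model BC048602, lower, against 6.2% and 7.28%. In late 2-cell embryos 141 were higher and 6 lower, against 17.0% and 17.2%. The shares of higher genes were above the background in the 3 embryonic stages. Late 2-cell levels of both genotypes entered the ranking, so the counts of that stage may depend on it, as those of the fall did. The FGO and MII counts depended on the processing and on single libraries. With libraries centred on their medians FGO had 24 higher and 11 lower and MII 38 higher and 9 lower. Without control replicate 1 or 2 the FGO count of 29 became 18 or 9, and the MII count of 30 became 13 without either control and 18 without knockout replicate 2. The median difference went from 0.02 in both FGO and MII to 0.21, 0.45 and 0.54 in the 3 embryonic stages.

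**Figure D5:**
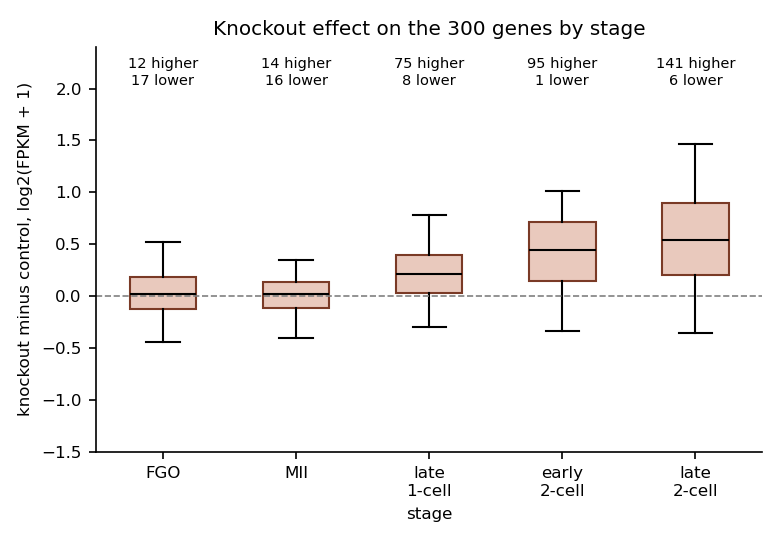
Knockout minus control on the log2(FPKM + 1) scale for the 300 genes at each stage. Boxes span the quartiles with the median as a line, whiskers reach the 5th and 95th percentiles, and the numbers give genes called higher and lower. The boxes are centred near 0 in FGO and MII and move up from the late 1-cell stage.

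At the late 2-cell stage every knockout library lay above every control library for 178 of the 300 genes, and below for 16, where the shares over all genes tested were 29.1% and 27.7%. Levels of this stage had entered the ranking. The genes called higher at different stages were partly the same. Of the 95 higher at the early 2-cell stage, 54 were also higher at the late 2-cell stage, which is 56.8% of the former and 38.3% of the 141. Of the 75 higher at the late 1-cell stage, 36 (48.0%) were higher at the early and 41 (54.7%) at the late 2-cell stage. Over all 300 genes, 31.7% were higher at the early and 47.0% at the late 2-cell stage, and the overlaps were not tested. The counts before the late 2-cell stage rest on a spread shared by the 5 stages. With each stage fitted alone, 11 genes were called in FGO, 17 in MII, 32 at the late 1-cell and 26 at the early 2-cell stage, and without knockout replicate 2 the early 2-cell count of 96 became 54 and without control replicate 1 it became 63. Without control replicate 1 or 2 the late 1-cell count of 83 became 40 or 46. Without control replicate 1 the late 2-cell count of 147 became 95.

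The late 1-cell differences were led by Slc45a4, Gdf9 and Saraf. Gdf9 (chr11:53431023-53437904), the secreted factor through which the oocyte acts on its follicle cells, was at 178 and 202 FPKM in control and 586, 392 and 277 FPKM in knockout late 1-cell embryos. Its egg levels were 986 and 904 FPKM against 930, 1039 and 949 FPKM, so that the genotypes overlapped before fertilization and were apart after it. The late 1-cell difference was 1.07 ± 0.18 (SE, adjusted p = 0.00028). Saraf, a brake on calcium entry, read 4.98 and 5.70 FPKM against 15.7, 11.5 and 9.10 FPKM, a difference of 1.02 ± 0.19 (SE, adjusted p = 0.00055). With the stage fitted alone both calls were lost, at adjusted p = 0.158 for Gdf9 and 0.0903 for Saraf in limma. The 2 control libraries for Slc45a4, a sugar transporter, disagreed at 11.6 and 2.09 FPKM, below 19.7, 24.6 and 20.4 FPKM in knockouts. Its call was lost without control replicate 2 or with the stage fitted alone. Slc45a4 was already apart before fertilization, at 29.1 and 33.9 FPKM in control and 52.2, 58.3 and 61.4 in knockout FGO. In MII eggs it was at 20.6 FPKM in both controls and at 35.5, 39.7 and 41.9 in knockouts. Bub1b, the spindle checkpoint kinase BUBR1, was the single gene of the 300 called for its loss from MII to late 1-cell, where the difference lay above 0 for 228 of the 300 with a median of 0.19. It was at 60.3 and 57.7 FPKM in control and 127, 137 and 96.3 FPKM in knockout late 1-cell embryos, after 321 and 353 against 296, 342 and 346 FPKM in eggs. This step differed by 1.04 ± 0.18 (SE, adjusted p = 0.018), where 0.158% of genes tested were called with less loss in the knockout and 0.0395% with more. The Bub1b call was lost without array weights, with MII and late 1-cell fitted alone and without either late 1-cell control, control MII replicate 2 or knockout MII replicate 1. By the late 2-cell stage its genotypes overlapped, at 13.1 and 16.8 against 15.8, 16.9 and 19.8 FPKM.

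Early 2-cell differences were led, among genes with a name, by Fam50a, Fam162a and Stom. Stom, the membrane protein stomatin, was at 10.8, 13.5 and 12.3 FPKM in controls and 26.1, 34.4 and 26.3 FPKM in knockouts, after 69.0 and 67.4 FPKM against 69.96, 62.3 and 61.1 FPKM at the late 1-cell stage. The knockouts came apart from the controls within this step, and the early 2-cell difference was 1.18 ± 0.14 (SE, adjusted p = 1.3e-05). By the late 2-cell stage the groups were closer, at 8.52 and 7.98 against 10.7, 11.7 and 13.5 FPKM. The loss from late 1-cell to early 2-cell was smaller in knockouts for 20 of the 300 genes and larger for 1, where 1.28% and 2.07% of all genes tested were called. The leaders were Stom at 1.26 ± 0.16 (SE), Rgs2 at 1.00 ± 0.20 and Bbs4, of the BBSome that serves cilia, at 1.00 ± 0.19. The 1 gene with a larger loss was Tm2d1, at -0.79 ± 0.21 (SE, adjusted p = 0.046), and 23 of its alternatives lost the call. The genes named for single steps were chosen after their values were seen. The count of 21 was 8 to 12 without any of the early 2-cell controls, either late 1-cell control or late 1-cell knockout replicate 3, 5 without early 2-cell knockout replicate 2, and 1 with the 2 stages fitted alone.

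From early to late 2-cell, 42 genes lost less or gained more in the knockout and 18 lost more or gained less, against 9.55% and 9.37% of all genes tested. The count of 60 became 27 without the filter on low values, 94 without array weights, 35 with the 2 stages fitted alone and 38 without late 2-cell control replicate 1. Asgr2 overlapped between genotypes at the early 2-cell stage, at 22.4, 20.02 and 25.99 FPKM in controls and 28.8, 27.1 and 18.8 FPKM in knockouts. Its late 2-cell libraries were apart, and the step differed by 1.65 ± 0.29 (SE, adjusted p = 0.00043). Nlrp4b, an oocyte gene of the NLRP family, read 54.0, 59.3 and 41.4 FPKM in knockout and 70.003, 70.4 and 66.5 FPKM in control early 2-cell embryos, a difference that was not called. At the late 2-cell stage it was higher, at 17.3, 17.8 and 23.1 FPKM against 9.001 and 8.25 FPKM, and the step differed by 1.5 ± 0.21 (SE, adjusted p = 4.8e-05). Among the 18 were Polr2d at -1.87 ± 0.16 (SE), Ttc4 at -2.04 ± 0.41 and Cox17, a copper chaperone of cytochrome oxidase, at -1.54 ± 0.45. For Cox17 the controls went up, from 2.65, 0.539 and 2.60 FPKM at the early 2-cell stage, and 7 alternatives lost the call of the step. It was called lower in knockout late 2-cell embryos, at 4.25, 4.73 and 3.39 FPKM against 8.78 and 9.34 FPKM, and this call was lost without either control library or knockout replicate 3.

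A few genes differed before fertilization. Cited2 (chr10:17723218-17725674), a transcriptional co-regulator that binds CBP and p300, was at 74.1 and 66.6 FPKM in control and 31.7, 34.3 and 37.5 FPKM in knockout MII eggs, a difference of -1.01 ± 0.11 (SE, adjusted p = 1.5e-06). It was lower by similar amounts in FGO and late 1-cell embryos, by -0.92 and -0.98. At the late 2-cell stage the genotypes overlapped, at 3.51 and 3.56 FPKM against 5.08, 2.99 and 5.57 FPKM, so that its smaller fall in knockouts came with a lower start. Styk1, a kinase-like membrane protein, was lower in knockout eggs, at 25.7, 21.8 and 23.7 FPKM against 39.1 and 38.0 FPKM, and lower again at the late 2-cell stage, at 1.03, 1.60 and 2.02 against 2.88 and 3.74 FPKM. Its fall differed by -0.09 ± 0.27 (SE). C87977, of the oocyte PRAME-like genes, was also lower in oocytes, with 24% of its words shared with other genes, and Qrfprl was called lower at the late 1-cell stage. The Qrfprl call was lost without array weights, with the stage fitted alone or without late 1-cell control replicate 2. Styk1 lost its calls in MII eggs and at the late 1-cell stage without array weights.

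Among the genes called higher in knockout FGO or MII eggs were Pde6b, Rgs10, Sox8 and Pabpn1l. Pde6b, a phosphodiesterase subunit best known from rod photoreceptors, was at 13.1 and 13.9 FPKM in control and 22.3, 22.5 and 19.7 FPKM in knockout MII eggs, a difference of 0.64 ± 0.13 (SE, adjusted p = 0.0012). Rgs10 was at 42.1 and 41.7 FPKM against 58.1, 66.2 and 62.8 FPKM, a difference of 0.56 ± 0.14 (SE, adjusted p = 0.0081). Sox8, a transcription factor gene of the SOX family, was at 24.2 and 22.2 against 31.2, 35.4 and 38.4 FPKM in FGO, and ended at 0.889 and 2.01 FPKM against 4.30, 5.86 and 5.99 FPKM. The knockout libraries were above the controls in each of these comparisons. The FGO and MII calls of Rgs10 and Pde6b were lost without array weights, that of Rgs10 in MII also without either control library, and those of Rgs10, Pde6b and Sox8 in FGO without control replicate 2 or with FGO fitted alone. The FGO call of Sox8 was also lost without array weights or knockout replicate 3, and that of C87977 with FGO fitted alone.

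The 300 were then read by role. Beside the counts that follow, 41.7% of all 300 lost less in the knockout, and 15.3% of all genes tested were called in that direction. No role was tested against the others. Of 25 tested genes of deadenylation and maternal decay, 2 are among the 300, and both lost less in the knockout. Pabpn1l (chr8:122619471-122622739), the oocyte poly(A)-binding protein that works with BTG4, was higher in knockouts at every stage. It was at 125 and 111 FPKM in control and 175, 198 and 174 FPKM in knockout MII eggs, and at 1.02 and 2.01 against 4.81, 4.91 and 5.79 FPKM in late 2-cell embryos, with no overlap at either stage. Its difference in the fall was 0.69 ± 0.21 (SE, adjusted p = 0.016). Dcp1a, a cofactor of mRNA decapping, was mixed between genotypes in eggs and stood at 58.7, 46.7 and 38.8 FPKM in control and 98.6, 111 and 82.6 FPKM in knockout early 2-cell embryos. Its difference in the fall was 0.76 ± 0.20 (SE, adjusted p = 0.0071).

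Of the 19 tested genes of mRNA storage and translational control, Zar1 and Zar1l, a pair of RNA-binding proteins that hold maternal mRNA in store, are among the 300. Zar1, with 28% of its words shared, ended at 18.4 and 18.1 FPKM in controls and 27.2, 31.4 and 36.5 FPKM in knockouts, and its difference was 0.73 ± 0.22 (SE, adjusted p = 0.015). Zar1l was higher in knockouts at all 5 stages, and its difference of 0.42 ± 0.22 (SE) missed the threshold. Of the 24 tested genes of the subcortical maternal complex and other maternal effect genes, 7 are among the 300 and 4 lost less in the knockout. These were Ooep, Nlrp9b, Nlrp5 and Nlrp4b. Nlrp9b went from 130 and 133 FPKM in control eggs to 9.57 and 8.42 FPKM, and in knockouts from 137, 152 and 152 to 31.0, 32.6 and 34.0 FPKM. Ooep, a core subunit of the complex, ended at 8.18 and 8.91 against 23.7, 22.9 and 24.4 FPKM. Neither gene's late 2-cell libraries overlapped, and the differences were 1.59 ± 0.13 and 1.27 ± 0.15 (SE, adjusted p = 4.9e-08 and 2.6e-06). For H1f8, Padi6 and Tle6, of which the latter pair encode subunits of the complex, the differences of 0.77 ± 0.36, 0.20 ± 0.19 and 0.60 ± 0.27 (SE) did not pass the test.

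Among 19 tested transcription factors and secreted factors of the oocyte, the 4 included here, Obox2, Nobox, Fgf8 and Gdf9, all lost less in the knockout. Nobox, a homeobox factor needed for follicle growth, went from 184 and 168 FPKM in control eggs to 9.04 and 7.23 FPKM, and in knockouts from 161, 155 and 164 to 19.7, 19.4 and 22.7 FPKM. Its difference was 1.38 ± 0.13 (SE, adjusted p = 3e-07). Obox2 shares 65% of its words with other genes. Of 19 tested genes of the egg coat, fertilization and egg activation, 6 are included here. The 3 of these that lost less were Oosp2, Oog4 and Izumo1r. Izumo1r, the egg receptor for sperm also called JUNO, ended at 5.83 and 5.39 against 9.72, 12.5 and 14.0 FPKM, with a difference of 1.14 ± 0.17 (SE, adjusted p = 4.5e-05). Astl, the protease ovastacin, and Zp1, a zona pellucida protein, had differences of 0.39 ± 0.23 and 0.41 ± 0.29 (SE) that did not pass. Of 40 tested genes of meiosis and M phase, 3 are included here, Mos, Bub1b and Btrc. Mos lost less, at 1.08 ± 0.36 (SE, adjusted p = 0.029). The differences of Bub1b and Btrc, 0.26 ± 0.25 and 0.13 ± 0.15 (SE), did not pass. Over all 40, 15 lost less or gained more in the knockout and 6 lost more or gained less.

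Of 34 tested genes of ubiquitin ligases and proteolysis, 6 are among the 300, and all belong to the Fbxw family and lie on chromosome 9. The 5 that lost less were Fbxw28, Fbxw26, Fbxw15, Fbxw22 and Fbxw14, with differences from 0.76 to 1.19, and Fbxw20 was at 0.11 ± 0.20 (SE). Over 50% of the words of Fbxw28 and Fbxw14 are shared with other genes, so reads of these may be mixed. No gene of the chromatin and DNA methylation list (38 tested) or of zygotic decay (12 tested) is among the 300. Further families were picked from the symbols after the values were seen. Of 6 tested Oas1 genes, 4 are among the 300. These lie on chromosome 5 and all lost less, with a median difference of 0.79. Of 114 tested genes of the respiratory chain and ATP synthase, 16 are among the 300. Of these 16, 1 lost less and 0 lost more, and the median fall was 3.21 in controls and 3.22 in knockouts. The gene that lost less was Ndufa8, at 0 FPKM in both control late 2-cell libraries. Over all 114, 8 lost less or gained more in the knockout and 15 lost more or gained less. Of 79 tested genes of the mitochondrial ribosome, 10 are among the 300, and 2 of these lost less, Mrpl48 among them. Over all 79, 7 lost less or gained more and 17 lost more or gained less. No test compared these families with the rest.

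Other genes of the decay pathways were read from the same lists, chosen by function and not by change. Of the 25 tested genes of deadenylation and maternal decay, 12 were higher and 3 lower in knockout late 2-cell embryos, where 17.0% and 17.2% of all genes tested were called. Pabpc1l, the cytoplasmic poly(A)-binding protein of the egg, was at 6.91 ± 0.469 FPKM (SD, n = 2) in controls and 20.7 ± 3.46 FPKM (SD, n = 3) in knockouts. Cnot4 and Zfp36l2 were higher too, by 1.23 ± 0.15 and 1.26 ± 0.25 (SE). Btg4, the adaptor named above, was called lower in knockout MII eggs, by -0.17, and at the late 1-cell and early 2-cell stages, by -0.34 at each. It was higher by 0.61 ± 0.09 (SE, adjusted p = 3.2e-05) at the late 2-cell stage. Its own difference in the fall was 0.79 ± 0.11 (SE), and the lower start in eggs enters it. Cnot10, a subunit of the deadenylase, was lower, at 4.14 ± 0.362 FPKM (SD, n = 3) against 11.6 ± 2.29 FPKM (SD, n = 2).

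Of the 12 tested genes of zygotic decay and uridylation, 5 were lower and 1 higher in knockout late 2-cell embryos, beside the same shares of 17.2% and 17.0% over all genes tested. Tead4, a transcription factor on which zygotic decay depends, was under 1 FPKM on average in either genotype up to the early 2-cell stage. At the late 2-cell stage it was at 6.95 ± 0.994 FPKM (SD, n = 2) in controls and 0.864 ± 0.467 FPKM (SD, n = 3) in knockouts, a difference of -2.12 ± 0.18 (SE, adjusted p = 2.7e-08). Its partner Wwtr1, which encodes TAZ, was at 5.04 ± 0.486 against 1.56 ± 0.116 FPKM, and Tut7 at 16.1 ± 2.01 against 10.3 ± 2.09 FPKM. Yap1 was not called. Dis3l2, a nuclease that acts on uridylated RNA, was the 1 higher gene, at 1.54 ± 0.334 against 0.601 ± 0.0886 FPKM. At the early 2-cell stage 1 of the 12 was called lower and 1 higher, beside 7.28% and 6.2% of all genes tested. The lower gene was Tut4, at 1.51 ± 0.380 FPKM (SD, n = 3) in controls and 0.250 ± 0.0846 FPKM (SD, n = 3) in knockouts. The higher gene was Lin28a. Tut7 was not called at the early 2-cell stage, nor Tut4 at the late 2-cell stage. Whether these levels bear on the loss of the 300 transcripts was not tested.

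For 2 other classes of transcript the same libraries gave these counts. Of 123 tested genes that fell by 1 or more during maturation, 9 were higher and 19 lower in knockout late 2-cell embryos, with a median of -0.29, beside 17.0% and 17.2% of all genes tested, where the 300 had 141 higher, 6 lower and a median of 0.54. At the late 1-cell stage 22 of the 123 were higher and 0 lower, beside 7.6% and 10.0% of all genes tested. The median of the 123 there was 0.24, close to the 0.21 of the 300. Of 300 genes that rose most from MII to late 2-cell, 0 were higher and 175 lower in knockout early 2-cell embryos. Over all genes tested the shares at that stage were 6.2% and 7.28%. At the late 2-cell stage 84 of the genes that rose were higher and 95 lower, beside the 17.0% and 17.2% above. The counts were not tested against each other, and late 2-cell levels entered the choice of the 300 and of the genes that rose.

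The 300 genes were also read in the embryo of day 6.5. These libraries were made from poly(A) RNA and normalized apart from the others, so levels are not set against the earlier stages. In the 4 epiblast libraries 202 of the 300 genes averaged 1 FPKM or more, which is 67.3% against 62.3% of the 15184 genes. The counts were 198 (66.0% against 59.5%) in visceral endoderm and 194 (64.7% against 60.2%) in extraembryonic ectoderm. These shares lie near those over all genes. The highest were Mif, a cytokine, Psma7, a proteasome subunit, and, in epiblast and extraembryonic ectoderm, Tmsb10, an actin-binding thymosin. Mif averaged 4398 FPKM in epiblast, with 51% of its words shared with other genes. Of the 300 genes, 68 were under 1 FPKM in every lineage library, Ftdc1, H1f8, Mos, Padi6, Zar1l and Nobox among them. Of 217 genes that passed the filter in these libraries, none was called between genotypes by limma in either epiblast or visceral endoderm, where 0.0% of the 13376 genes tested were called in epiblast and 0.00748%, a single gene, in visceral endoderm. At an unadjusted p under 0.05 the counts were 5 and 1. With 2 libraries a group, differences of the size seen at the late 2-cell stage may go uncalled. Extraembryonic ectoderm had 1 control library and was not tested.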

How the data were processed

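Full-length RNA-seq was read from 26 total RNA libraries of oocytes and preimplantation embryos and 11 poly(A) libraries of day 6.5 lineages. The deposited values are FPKM per gene; the submitters' processing notes name Trim Galore 0.6.6, STAR 2.7.9, StringTie 2.1.7 and mm10. Whether counting used strand is not given in the sources used here, so antisense partners cannot be told apart. For 1 library the authors deposited a column with 1 value below zero, which was set to 0. Depth is unknown from FPKM, so no counting interval is given. The 26 libraries were fitted together on log2(FPKM + 1) with limma 3.58.1 in R 4.3.3, with group means, array weights of 1 variance per stage and a mean-variance trend, over genes that reached 1 FPKM in 2 or more libraries. The threshold was an adjusted p of 0.05. A separate fit without weights took the 8 libraries of epiblast and visceral endoderm. Genes were matched to GENCODE M21 (GRCm38), which holds 54349 of the 55401 gene versions. 3′ UTRs came from its transcripts; promoter sequences were not used. Scripts were tested on simulated data. The members and lists were chosen with earlier results of these data known. The text names the 12 deepest falls, the 8 strongest called differences in clearance each way without overlap at the late 2-cell stage, the 3 highest and lowest called genes per stage, role-list members, genes at the limits and called decay genes, and leaves gene models without a name unnamed. Alternatives covered the pseudocount, filter, scaling, weights, trend, ranking, stages fitted, replicate block and each library left out.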

Additional observations from a re-analysis of the deposited data

Results flagged for a closer look

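For 11 genes the knockout effect in late 2-cell embryos differed from that in MII eggs by the interaction test of the limma fit, which is the difference in clearance given above. On the log2(FPKM + 1) scale the late 2-cell effect exceeded the egg effect by 1.96 for Mrpl48, 1.81 for Fgf8, 1.81 for Fam162a and 1.71 for Ninj2. It exceeded it by 1.66 for Fetub, 1.65 for Asgr2, 1.64 for Oas1c and 1.62 for Tdrd12. The late 2-cell effect was the lower one for Polr2d (-1.31), Ttc4 (-1.09) and Noc4l (-0.50). These genes were named because their differences were the strongest, so their number is set by the rule.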

How the results depend on the processing

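The 128 calls in clearance became 70 without the filter on low values, 63 with a difference of at least 1 and 71 of the first 150 genes; ranked on knockout libraries alone the median was 0.18. Each library left out in turn gave 85 to 135 calls and a median of 0.49 to 0.65. The late 2-cell count of 147 became 83 without the filter, and 95 to 150 with a library left out. Without array weights the counts were 6 in FGO, 5 in MII, 28 at late 1-cell and 146 at early 2-cell, and with each stage alone 11, 17, 32 and 26. With a library left out they were 9 to 33, 13 to 35, 40 to 89 and 54 to 99. Median centring gave 47 in MII (38 higher, 9 lower), turned FGO to 24 higher and 11 lower, and TPM scaling gave 16 and 12 in MII. From MII to late 1-cell the 1 call became 6 without the filter, 4 at a mean of 5 FPKM, 5 scaled to protein-coding genes, 0 without weights or with the stages alone, and 0 to 12 with a library left out. From late 1-cell to early 2-cell the 21 became 12 with a pseudocount of 0.1 or no filter, 32 with median centring, 1 with the stages alone, 11 without trend, and 5 to 31 with a library left out. From early to late 2-cell the 60 became 27 without the filter, 94 without weights, 35 with the stages alone, and 38 to 64 with a library left out. Epiblast and visceral endoderm stayed at 0. The causes were not tested. Replicate numbers correlated between -0.08 and 0.14 between same-numbered libraries of the total RNA stages. They correlated at 0.59 in epiblast and 0.43 in visceral endoderm, with 2 pairs each, and nothing in the labels says what a number shares, so they were not taken as pairs. A replicate block gave 0 calls in epiblast and 0 in visceral endoderm, 107 calls in clearance (100 less, 7 more), 18 higher and 11 lower in FGO, and 2 and 12 calls in the first 2 steps. Over 1764 repeats of 49 named gene results, 1668 kept the call, 96 lost it and 0 reversed. Depth is unknown, so levels near 0, such as Ndufa8 in control late 2-cell embryos, have no stated error.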
